A study of Glycine max with 2 samples.

Results

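A stretch of soybean chromosome 18, read in the order of the Glyma numbers, was examined in young shoot tips of hairy Clark standard soybean (CS) and of its hairless isoline, Clark glabrous (CG). Its 50 loci, Glyma18g08980 to Glyma18g09980, are the window of 50 consecutive loci on this chromosome with the most loci that differ between the lines. They were taken from 1836 loci of chromosome 18 and from 35036 loci in all that reach a mean RPKM of 1 over both libraries, out of 69145 loci in the tables. RPKM here is the number of alignments scaled to the length of the gene model and to the depth of the library. A locus is called changed when log2 CS/CG, taken after 0.1 RPKM is added to each value, is at least 2 in size, which is a 4-fold difference on that scale. The stretch was thus selected on the RPKM values of both libraries and on this ratio, so every count and ratio of CS against CG in it is a description and carries no test. The members are known by their Glyma numbers alone, since the annotation table used here pairs 0 of the chromosome 18 numbers with a name. No function is therefore given for any of them, and no sequence or genome coordinate was used.

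CS is the wild type Clark line with trichomes. CG is its hairless isoline, which carries the dominant P1 allele and was made by repeated backcrossing of a glabrous P1 line into Clark. There was 1 RNA-Seq library per line, each from shoot tips pooled over multiple greenhouse plants about 4 weeks old. Plant-to-plant spread is therefore unknown and no difference given here has a replicate check. The study also profiled both lines by Digital Gene Expression tags from a separate biological sample, and those data were not used here. In tissue of this kind, fewer cells that use a gene and less RNA of it per cell cannot be told apart.

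As background, soybean trichomes are single-stalked hairs that grow out of epidermal cells and are laid down early in leaf development. An isoline is a line bred to match another everywhere except around a selected gene, although donor DNA can also persist in other places. Plant chromosomes hold many arrays of neighbouring, related gene copies, and soybean, an ancient polyploid, keeps further copies on other chromosomes. Short reads from copies that are nearly identical can be aligned to several of them. Glyma numbers follow the order of predicted genes along a chromosome, so neighbours in number are neighbours in position, but the numbers give no distance in bases.

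The label of the libraries was checked on genes named in the study. The BURP domain gene Glyma04g35130 had 480.4 RPKM in CS and 0.0105 RPKM in CG, and the chlorophyll a-b binding protein gene Glyma16g28030, a gene of green tissue, had 1093 RPKM in CS and 280.9 RPKM in CG. The values are whole steps of 1 alignment, which gave totals of 152791817 alignments for CS and 147273809 for CG. These totals exceed the mapped reads that the study reports. They are therefore taken to count a read once for each of its alignments, with the values scaled to alignments. The study itself describes RPKM as scaled to mapped reads. Over all 35036 loci the median log2 CS/CG was -0.35, and 72.9% of them had the higher RPKM in CG, so a small excess in CG is common to the tables as a whole.

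All 26 changed members of the stretch were higher in CG, and 0 were higher in CS. Of all 35036 loci, 5.46% were changed, with 3.93% toward CG and 1.53% toward CS, and without the stretch 3.86% were changed toward CG. Of the chromosome 18 loci 5.39% were changed, with 3.76% toward CG, and outside the stretch its shares were 2.41% toward CG and 1.68% toward CS. The rule used this same contrast, so the share in the stretch is not a result of its own. The other 24 members stayed under the threshold, 18 of them with the higher RPKM in CG and 6 with the higher RPKM in CS. The median log2 CS/CG was -3.04 in the changed members, -0.42 in the unchanged members and -2.14 over all 50.

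**Figure D1:**
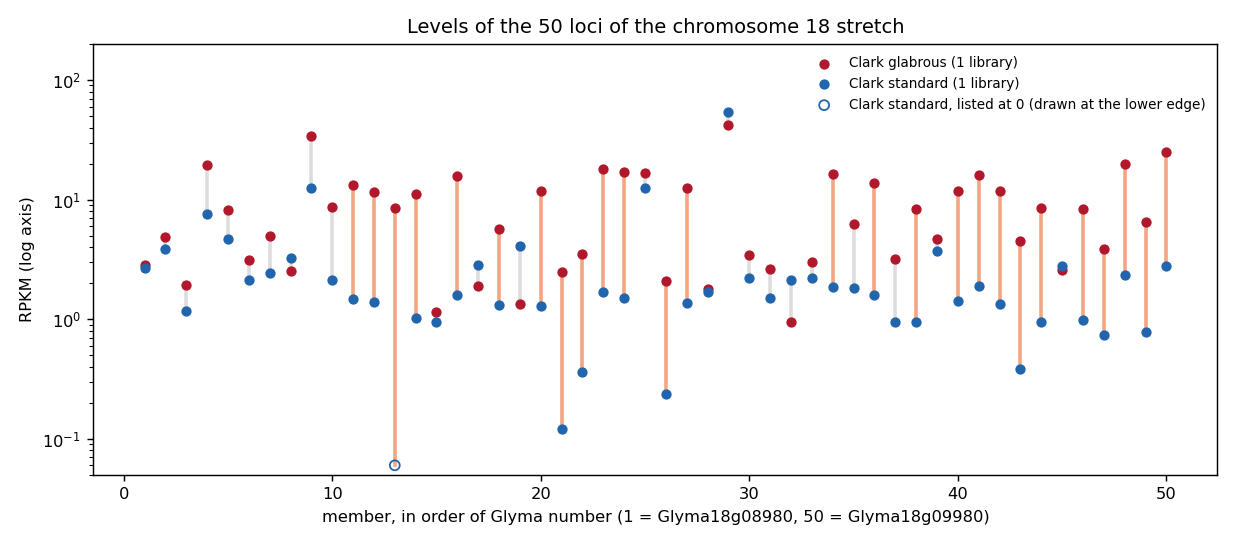
RPKM (log axis) of each of the 50 members in Clark standard (blue) and Clark glabrous (red), in the order of their Glyma numbers, with 1 library per line, no error bars, orange lines joining the values of the 26 changed members, grey lines those of the 24 unchanged ones and an open circle for the member listed at 0 in CS. The changed members start at member 11, and in all of them the CG point lies above the CS point.

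The stretch opened with 10 unchanged loci, 9 of them with the higher RPKM in CG, at a median log2 CS/CG of -0.73. Its first member, Glyma18g08980, had 2.68 RPKM in CS and 2.83 RPKM in CG, nearly the same level in both lines. Glyma18g09110 had 12.4 RPKM in CS and 34.1 RPKM in CG, and Glyma18g09030 had 7.60 RPKM in CS and 19.3 RPKM in CG. These loci leaned toward CG but did not reach the threshold, with log2 CS/CG of -1.45 and -1.33. Glyma18g09040, also among the more abundant unchanged loci, had 4.71 RPKM in CS and 8.21 RPKM in CG. The last of the 10, Glyma18g09120, had 2.12 RPKM in CS and 8.75 RPKM in CG, and with a log2 ratio of -1.99 it is the member nearest to the threshold from outside.

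The first changed member was Glyma18g09130. This locus had 1.47 RPKM in CS and 13.3 RPKM in CG, and its neighbour Glyma18g09140 had 1.39 RPKM in CS and 11.6 RPKM in CG. Glyma18g09170 had 1.01 RPKM in CS and 11.2 RPKM in CG. Each of the 3 was low in CS and at a moderate level in CG. Between them lies Glyma18g09160, the member with the most extreme ratio, which was listed at 0 in CS and had 8.52 RPKM in CG. A count of 0 allows up to 3 alignments in the CS library, which on the recovered length of 396 bases is 0.0496 RPKM. The listed CG level was 172 times that limit. The exact 95% interval, which also covers the counting error in CG, ended at a log2 ratio of -7.12. Of the 26 changed members it was the only one listed at 0 in either library.

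A second group of changed loci ran from Glyma18g09220 to Glyma18g09410. Glyma18g09220 had 1.59 RPKM in CS and 15.7 RPKM in CG, and Glyma18g09290 had 1.29 RPKM in CS and 11.7 RPKM in CG. These resemble the first group in both lines. Glyma18g09330 had 1.70 RPKM in CS and 17.9 RPKM in CG, Glyma18g09340 had 1.52 RPKM in CS and 17.04 RPKM in CG, and Glyma18g09410 had 1.37 RPKM in CS and 12.4 RPKM in CG. All 5 were above 10 RPKM in CG and below 2 RPKM in CS.

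The same part of the stretch held 4 changed loci at lower levels. Glyma18g09260 had 1.31 RPKM in CS and 5.66 RPKM in CG, and its log2 ratio of -2.03 is the one nearest to the threshold from inside. Glyma18g09320 had 0.359 RPKM in CS and 3.49 RPKM in CG, and Glyma18g09390 had 0.238 RPKM in CS and 2.07 RPKM in CG. Glyma18g09310 had 0.120 RPKM in CS and 2.49 RPKM in CG, from as few as 2 and 40 alignments. Its log2 ratio without a pseudocount therefore has an exact 95% interval from -7.47 to -2.43, the widest among the changed members above 0 in CS.

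After 6 unchanged loci in a row, the changed members resumed at Glyma18g09630, with 1.88 RPKM in CS and 16.5 RPKM in CG. Glyma18g09670 had 1.60 RPKM in CS and 13.8 RPKM in CG, and Glyma18g09720 had 0.944 RPKM in CS and 8.41 RPKM in CG. Single unchanged loci alternated with these 3. Glyma18g09650, with 1.81 RPKM in CS and 6.27 RPKM in CG, and Glyma18g09700, with 0.946 RPKM in CS and 3.19 RPKM in CG, fell just outside the threshold at log2 ratios of -1.74 and -1.65. Glyma18g09730, with 3.68 RPKM in CS and 4.69 RPKM in CG, was close in both lines.

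The stretch ended with 2 runs of 5 changed members, separated by the unchanged Glyma18g09870. Loci that did not reach a mean RPKM of 1 also lie within both runs, and none of them passed the threshold. In the first of these runs Glyma18g09750 had 1.42 RPKM in CS and 11.7 RPKM in CG, Glyma18g09790 had 1.90 RPKM in CS and 16.1 RPKM in CG, and Glyma18g09800 had 1.33 RPKM in CS and 11.7 RPKM in CG. Glyma18g09820 was lower, with 0.385 RPKM in CS and 4.54 RPKM in CG. Glyma18g09840 had 0.944 RPKM in CS and 8.43 RPKM in CG. The levels of the run differed several-fold among its loci in each line, while every locus kept a similar ratio between the lines.

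In the closing run Glyma18g09880 had 0.975 RPKM in CS and 8.34 RPKM in CG, and Glyma18g09950 had 0.787 RPKM in CS and 6.46 RPKM in CG. Glyma18g09900, with 0.732 RPKM in CS and 3.83 RPKM in CG, had one of the smallest differences of the changed members, a log2 ratio of -2.24. The most abundant changed members in CG were in this run. Glyma18g09920 had 2.32 RPKM in CS and 19.8 RPKM in CG, and the last member, Glyma18g09980, had 2.77 RPKM in CS and 24.8 RPKM in CG. They were also the only changed members at 2 RPKM or more in CS.

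Changed and unchanged loci were interleaved. From the first to the last changed member there were 40 loci, of which 26 (65.0%) were changed, in 10 runs. The longest runs held 5 loci and 5 of the runs held a single locus. Among the 14 unchanged loci between them, 9 had the higher RPKM in CG and 5 had the higher RPKM in CS, with a median log2 CS/CG of -0.29, close to the -0.35 of all loci. The most abundant member of the stretch, Glyma18g09430, was one of these, with 54.2 RPKM in CS and 42.0 RPKM in CG. Glyma18g09380, which had 12.5 RPKM in CS and 16.7 RPKM in CG, was also close in both lines. The members on both sides of it were changed, although loci with a mean RPKM below 1 lie between it and Glyma18g09340. The members that leaned furthest toward CS were Glyma18g09270, with 4.10 RPKM in CS and 1.35 RPKM in CG, and Glyma18g09500, with 2.12 RPKM in CS and 0.952 RPKM in CG.

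**Figure D2:**
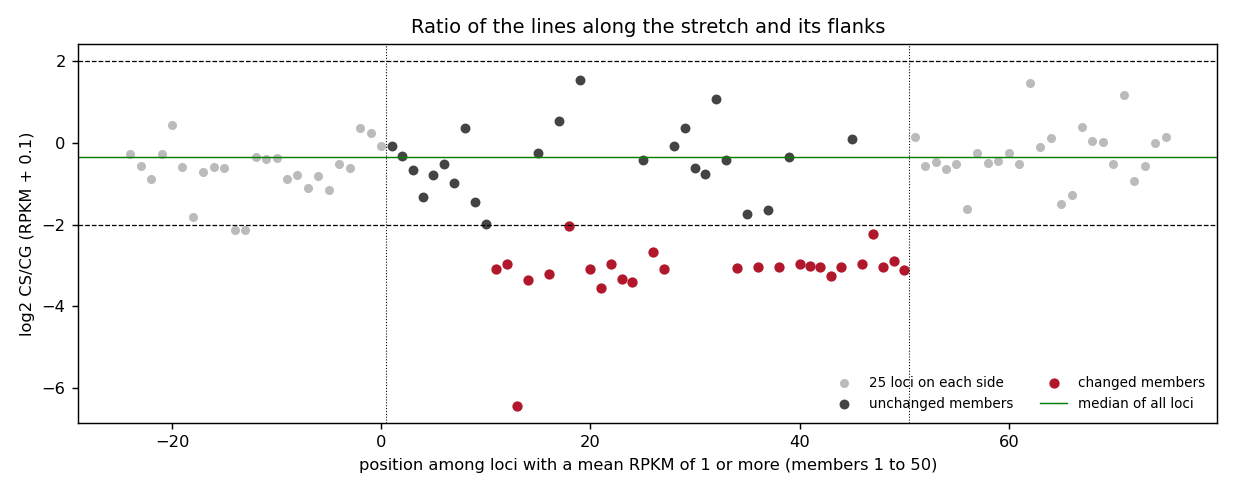
Log2 CS/CG after adding 0.1 RPKM, for the 50 members (changed in red, unchanged in dark grey) and 25 loci on each side (light grey), in the order of Glyma numbers, with dashed lines at the threshold of 2 in either direction and a green line at the median of all loci, -0.35. Most changed members lie in a narrow band near -3, and all but 2 of the loci drawn on either side lie under the threshold.

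Changed and unchanged members differed more in CG than in CS. In CG the changed members had 2.07 to 24.8 RPKM with a median of 11.7, and 15 of the 26 reached 10 RPKM. In CG the unchanged members had 0.952 to 42.0 RPKM with a median of 3.16, and 4 of the 24 reached 10 RPKM. In CS the order was the opposite, with a median of 1.32 RPKM in the changed members and 2.57 RPKM in the unchanged ones. No changed member exceeded 2.77 RPKM in CS, whereas 18 of the 24 unchanged members reached 2 RPKM there. Summed over the 26 changed members, the RPKM was 31.4 in CS and 287.7 in CG, against 136.0 in CS and 182.2 in CG for the 24 unchanged members. For comparison, the medians over all loci were 4.34 RPKM in CS and 5.59 RPKM in CG, and those of the 1350 other loci changed toward CG were 1.15 RPKM in CS and 9.40 RPKM in CG. Selection by the ratio itself favours levels that are low in CS and high in CG.

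Most of the changed members had a similar ratio between the lines. Among the 25 above 0 in CS, CG/CS went from 4.32 in Glyma18g09260 to 20.7 in Glyma18g09310. Glyma18g09160, listed at 0 in CS, had a log2 ratio of -6.43. The interquartile range of the log2 ratios of all 26, -3.19 to -2.97, had a width of 0.22, against 1.17 for the 1350 other loci of the tables that were changed toward CG. Within 0.25 of their median of -3.04 were 18 of the 26 changed members (69.2%) and 232 of the 1350 other loci (17.2%). This band was drawn around the median after the values were seen. In those 18 members the RPKM in CG was 8.21 to 11.8 times the RPKM in CS, although the levels themselves went from 0.359 to 2.77 RPKM in CS and from 3.49 to 24.8 RPKM in CG. The band lies wholly past the threshold, so by definition no unchanged member could fall in it.

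**Figure D3:**
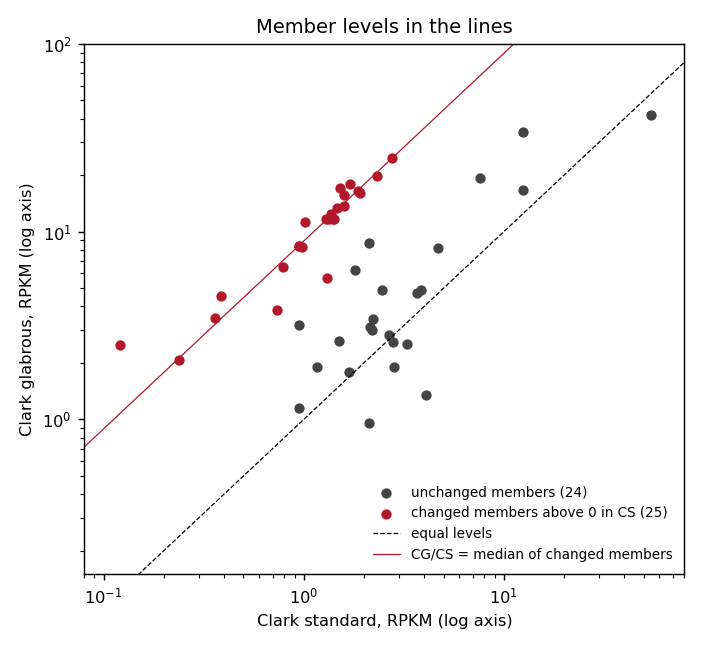
RPKM in Clark glabrous against RPKM in Clark standard for the members (both axes logarithmic), with the 25 changed members above 0 in CS in red and the 24 unchanged members in dark grey, a dashed line at equal levels and a red line at the median CG/CS ratio of the changed members, 8.91. Most red points lie near that line over more than a 10-fold range of levels, while grey points scatter around and above the line of equal levels.

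Across the 25 changed members above 0 in CS, the levels in both lines went together, with a Spearman correlation of 0.96 and a Pearson correlation of 0.93 between log2 RPKM values. This is a description over loci of the same 2 libraries, and gene models that share reads are not independent of each other. The loci were also chosen by the ratio of these same values, which in part ties their levels together. No other set of loci is given for comparison, so the correlations are not a result of their own. The authors allowed up to 25 alignments for each 75-base read, so 1 read can count in several members where their sequences match. Whether the changed members share reads was not tested, and the numbers of alignments below cannot be added up as separate molecules.

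Counting error was small beside most of these differences. Whole numbers of alignments were recovered for all 50 members, as the smallest numbers that fit the RPKM values, so the true numbers can be multiples of them. The changed members had at least 0 to 1290 alignments in CS (median 390) and 40 to 10618 in CG (median 3579). For Glyma18g09920, with at least 1290 alignments in CS and 10618 in CG, the exact (Clopper-Pearson) 95% interval of log2 CS/CG without a pseudocount was -3.18 to -3.01. The interval lay wholly below -2 for 25 of the 26 changed members, the other being Glyma18g09260 with -2.38 to -1.85. It also excluded 0 for 19 of the 24 unchanged members, so unchanged means under the threshold and not equal in both libraries. These intervals cover counting error only and compare the libraries, not the lines.

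Many changed members also had models of similar length, which the rule did not use. Their recovered model lengths had a median of 2442 bases, against 988 bases for the unchanged members. Lengths of 2000 to 3000 bases, a class chosen after the lengths were seen, were found for 15 of the 26 changed members and 0 of the 24 unchanged ones, and these 15 loci had log2 ratios from -3.41 to -2.89. The same class held 14.5% of the 35030 loci of the tables with a recovered length, and 10.6% of the 1350 other loci changed toward CG. Of the other changed members, 4 were between 1000 and 2000 bases long and 1 was longer than 3000. Only 6 changed members were shorter than 1000 bases, among them the members with the most extreme ratio, Glyma18g09160, and the smallest differences, Glyma18g09260 and Glyma18g09900. Among the unchanged members 13 were shorter than 1000 bases and 2 were longer than 3000. The class also held 2 loci below the filter, where Glyma18g09530 (2337 bases) had 0.627 RPKM in CS and 0.779 RPKM in CG and Glyma18g09710 (2783 bases) had 0.0282 RPKM in CS and 0.0830 RPKM in CG. Recovered lengths are the smallest that fit, so a short one can be a fraction of the true length.

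**Figure D4:**
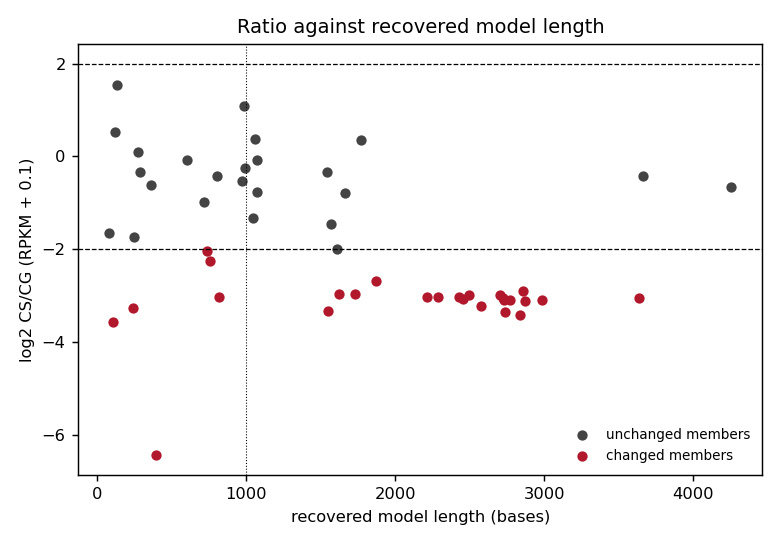
Log2 CS/CG after adding 0.1 RPKM against the recovered length of the gene model in bases, for the 26 changed (red) and 24 unchanged (dark grey) members, with dashed lines at the threshold and a dotted line at 1000 bases. The 15 members between 2000 and 3000 bases are all changed and lie between -3.41 and -2.89, while shorter members spread over the whole range.

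The tables hold 51 further loci in the same range of Glyma numbers that did not reach a mean RPKM of 1, 46 of them between the first and the last changed member. Of the 51, 12 were listed at 0 in both libraries, 23 had the higher RPKM in CG and 16 had the higher RPKM in CS. Of the 39 loci above 0, 1 passed the threshold toward CG and 1 toward CS, against 1.63% and 1.21% of all loci above 0 and below the filter. Counts of 1 are too small to be set apart from these shares. The one toward CG was Glyma18g09560, with 0.00898 RPKM in CS and 0.396 RPKM in CG, on 2 alignments in CS and 85 in CG or multiples of these. Its exact 95% interval, in log2 units and with no pseudocount, was -8.53 to -3.57. The one toward CS, Glyma18g09020, had 1.06 RPKM in CS and 0.0640 RPKM in CG and lies before the first changed member. The highest levels among the 51 in CG were those of Glyma18g09400, with 0.417 RPKM in CS and 1.37 RPKM in CG, and Glyma18g09100, with 0.545 RPKM in CS and 1.20 RPKM in CG. The pseudocount of 0.1 RPKM pulls the ratios of such low loci toward 0, and with 0.01 RPKM in its place 4 of the 51 passed the threshold toward CG. The share of all low loci that pass with 0.01 RPKM was not computed. The filter itself depends on the difference, since a locus low in CS passed it where CG was high enough, so these counts are not a contrast with the members.

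Only 1 member had more than 1 gene model. The second model of Glyma18g08990 had 5.35 RPKM in CS and 6.05 RPKM in CG, a log2 ratio of -0.17, and its first model had 3.87 RPKM in CS and 4.89 RPKM in CG, a log2 ratio of -0.33. Both models were close between the lines.

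Loci next to the stretch mostly stayed under the threshold. The 5 loci before the stretch, Glyma18g08780, Glyma18g08850, Glyma18g08900, Glyma18g08910 and Glyma18g08940, had log2 ratios from -0.61 to 0.36. The most abundant of them, Glyma18g08900, had 104.4 RPKM in CS and 81.2 RPKM in CG. The 5 loci after it, Glyma18g10020, Glyma18g10030, Glyma18g10040, Glyma18g10060 and Glyma18g10070, had log2 ratios from -0.65 to 0.15. Glyma18g10020, the direct neighbour of the most abundant changed member, had 8.81 RPKM in CS and 7.92 RPKM in CG. Of the 25 loci before the stretch 2 were changed, both toward CG, and of the 25 after it 0 were changed, where 3.93% of all loci were changed toward CG. The 25 before it had a median log2 ratio of -0.58, with 22 higher in CG. The 25 after it had a median of -0.44, with 16 higher in CG. Over all loci the median was -0.35, with 72.9% higher in CG. Counted from the first changed member backwards, 23 unchanged loci separated it from Glyma18g08570, which had 8.88 RPKM in CS and 39.0 RPKM in CG. After the last changed member came 34 unchanged loci before Glyma18g10790, which went the other way, with 2.79 RPKM in CS and listed at 0 in CG. Because all changed members lie within 40 loci, 11 overlapping windows of 50 loci held the same 26, and the stretch as defined is the first of them.

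No window of 50 loci on another chromosome held as many changed loci. On chromosome 18, windows that share no locus with the stretch held at most 7, and the median over its 1787 windows was 2. On the 19 other chromosomes the highest count per chromosome ranged from 7 to 17, with a median of 10. The nearest were windows on chromosome 16 (Glyma16g29650 to Glyma16g31050) and chromosome 17 (Glyma17g31790 to Glyma17g32880) with 17 changed loci each, and on chromosome 13 (Glyma13g08990 to Glyma13g10070) with 16. In these 3 windows, as on chromosome 18, every changed locus was higher in CG. The same held for the windows of chromosomes 3, 6 and 19, with 10, 12 and 9 changed loci. On chromosome 9 it held for 9 of 10, and the interquartile width of the 10 log2 ratios was 0.42. The changed loci of the windows on chromosomes 16, 17 and 13 had median log2 ratios of -2.60, -2.78 and -2.45. Their interquartile widths were 0.61, 0.42 and 0.47, against a median of -3.04 and a width of 0.22 in the chromosome 18 stretch. Their median levels were 1.11 RPKM in CS and 6.19 RPKM in CG on chromosome 16, 0.632 and 6.50 RPKM on chromosome 17, and 1.18 and 7.45 RPKM on chromosome 13. These windows were picked for their counts, so the values are set side by side and no test of a difference was made.

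**Figure D5:**
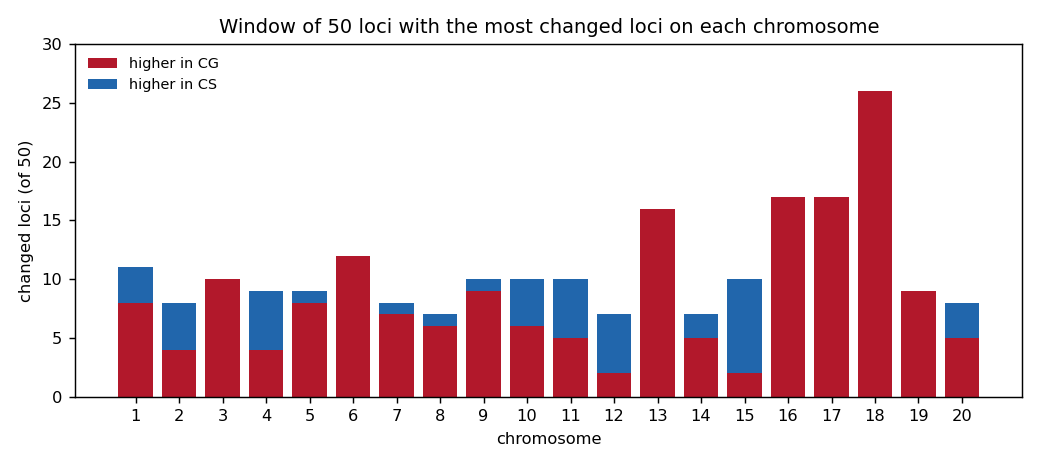
Number of changed loci in the window of 50 loci with the most changed loci on each of the 20 chromosomes, split into loci higher in CG (red) and higher in CS (blue). The chromosome 18 window holds 26, all higher in CG, and the next are 17 on chromosomes 16 and 17 and 16 on chromosome 13.

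After the ratios of all loci were centred on their median, which adds 0.35 to each, 24 of the 26 changed members were still past the threshold toward CG. The exceptions were Glyma18g09260 and Glyma18g09900, with centred log2 ratios of -1.68 and -1.89. Of all loci, 5.02% were past the threshold in either direction after centring. That no changed member switched direction follows from the threshold, which is far larger than this shift. The shift did turn 5 of the unchanged members, of which 13 were then higher in CG and 11 higher in CS, with a median of -0.070.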

How the data were processed

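RNA-Seq was carried out on 1 shoot tip library of each line. Per the study's methods, the authors mapped 75-base reads with Bowtie (version not given in the sources used here) to soybean Glyma cDNA models, with up to 3 mismatches and up to 25 alignments per read, and deposited RPKM values. The use of strand is not given in the sources used here. The deposited RPKM values are not counts and no count test was used. With 1 library per line, no p-value was computed.

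The lowest-numbered model stood for each locus. Log2 CS/CG was taken after adding 0.1 RPKM, for loci whose RPKM averaged at least 1 over both libraries, and the threshold was 2. Numbers of alignments and model lengths are the smallest whole numbers that give both RPKM values. Exact 95% intervals use these numbers, and 3 alignments is the limit that a count of 0 allows. The totals worked out from the RPKM values were similar in both lines, at 152791817 alignments in CS and 147273809 in CG. The study reports fewer aligned reads than this, with more in CG than in CS.

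The loci named are all changed members, the 5 most abundant unchanged members, the 2 unchanged members nearest to the threshold on the CG side and on the CS side, the first and last member, any member at 0, the 5 loci on each side and the 3 loci below the filter with the highest RPKM in either library. Others (Glyma18g09560, the second model of Glyma18g08990, Glyma18g09530, Glyma18g09710, Glyma18g09700, Glyma18g09730, Glyma18g09870, Glyma18g08570, Glyma18g10790 and the windows of other chromosomes) were chosen after their values were seen. The members and lists were chosen with earlier results of these data known. The alternatives were other pseudocounts, scalings, filters, thresholds, window sizes and models. The computations were tested on simulated data, using SciPy 1.17.1, pandas 2.3.3 and NumPy 2.4.6 under Python 3.11.15, and plots were drawn with matplotlib 3.10.9.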

Additional observations from a re-analysis of the deposited data

How the results depend on the processing

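No paired analysis was possible because there was a single library of each line, which also means that none could be left out. Of 52 alternative values, 35 stayed within 1.5 times the reported value (counts and percentages) or within 0.1 (medians of log2 ratios). A change of direction could be scored for the medians only, and 0 of these changed direction. Among members averaging at least 5 RPKM, 15 were changed, all toward CG, but only 21 members were left. Of all loci averaging at least 5 RPKM, 5.46% were changed in either direction. A threshold of 1 brought 2 members past it toward CS, where 0 passed as reported, and 31 toward CG. At that threshold 20.9% of all loci passed in either direction and 15.2% toward CG. The loci below the filter that passed toward CG went from 1 to 5 at a threshold of 1 and to 4 with a pseudocount of 0.01. No share over all loci below the filter was computed at these settings. The median log2 ratio of the 50 members, -2.14 as reported, was -1.50 with a pseudocount of 1, -2.24 with 0.01, -1.78 after median-centring and -1.79 with the same 75th percentile in both libraries. That of the unchanged members went from -0.42 to -0.070 after median-centring and to -0.072 with the same 75th percentile. The highest window on chromosome 18 held 15 changed loci of 25 with a window of 25 loci, 14 with no filter on low values and 17 with a mean RPKM of 5 or more. These windows shared 25, 27 and 21 loci with the stretch. The share of all loci that were changed, 5.46% as reported, was 2.88% with a pseudocount of 1, 20.9% at a threshold of 1 and 1.96% at a threshold of 3. With a pseudocount of 1, 20 members were changed. With 0.01, 27 members and 5.98% of all loci were changed. Values from few alignments, as in loci below the filter and short models, have wide counting intervals.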
